A study of Homo sapiens with 6 samples.

Results

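Chondroitin sulfate is a long sugar chain that hangs from core proteins at the cell surface and in the matrix, and 10 genes encoding enzymes of its synthesis were followed in MDA-MB-231 cells after vitamin C. The genes were XYLT1 and XYLT2, which start the linkage to the protein, CSGALNACT1 and CSGALNACT2, which start the chain, CHSY1, CHSY3, CHPF and CHPF2, which lengthen it, and CHST3 and CHST11, which sulfate it. They are 10 of the 60675 gene identifiers counted. The set was selected on the measured rise of CSGALNACT1, which was among the largest after vitamin C in these same libraries, and filled up by function. That rise is therefore given as a description, with no test.

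MDA-MB-231 is an established human triple-negative breast cancer line. There were 3 wells treated with 100 μM vitamin C, given as sodium ascorbate, for 3 days, and 3 control wells without added vitamin C, with the medium renewed daily. Total RNA depleted of ribosomal RNA was sequenced, and each well gave 1 library. The general culture methods give 3 wells to a group in each experiment, so the 3 libraries of a group may be wells of 1 experiment, and p-values cover the spread between these wells only, which may be technical.

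Synthesis begins in the secretory pathway when a xylosyltransferase places xylose on a serine of a core protein. A short linkage of galactose and glucuronic acid follows, and the next sugar decides the kind of chain. N-acetylgalactosamine, added by CSGALNACT1 or CSGALNACT2, commits the linkage to chondroitin sulfate, while N-acetylglucosamine commits it to heparan sulfate. Synthases then add glucuronic acid and N-acetylgalactosamine in turn, and sulfotransferases modify the 4 or the 6 position of the N-acetylgalactosamine. The chains bind growth factors and adhesion molecules, and in breast tumours they are a prominent part of the matrix.

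Vitamin C is a cofactor of dioxygenases, among them those that mark hypoxia-inducible factors for breakdown. The windows just upstream of the gene starts were therefore searched for ACGTG, 1 form of the core letters that these factors bind. Other forms of the core were not searched, so the matches given are to this form only. The 250 bases before each start were taken from a collection of windows at RefSeq starts on GRCh38.p14. The collection used here covered 9 of the 10 genes, with 12 windows in all. CSGALNACT1 was not among them, so its upstream bases were not searched. Its absence is a limit of the collection and does not mean that RefSeq lacks the gene. The letters ACGTG, or CACGT on the other strand, were present in 2 of the 12 windows, those of CSGALNACT2 and CHSY1, and in 18.5% of the 35116 windows in the whole table. Both windows are shown 5′ to 3′ on the strand of the gene because they carry the only matches among the 9 genes, with the matched letters in capitals. The CSGALNACT2 window is chr10:43138195-43138444 on the plus strand and the CHSY1 window is chr15:101252049-101252298 on the minus strand.
CSGALNACT2: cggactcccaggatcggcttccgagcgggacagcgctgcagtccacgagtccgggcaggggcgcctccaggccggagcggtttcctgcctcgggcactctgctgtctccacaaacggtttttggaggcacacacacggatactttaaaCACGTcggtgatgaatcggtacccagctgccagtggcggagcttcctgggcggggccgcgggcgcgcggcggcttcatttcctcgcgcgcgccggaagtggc
CHSY1: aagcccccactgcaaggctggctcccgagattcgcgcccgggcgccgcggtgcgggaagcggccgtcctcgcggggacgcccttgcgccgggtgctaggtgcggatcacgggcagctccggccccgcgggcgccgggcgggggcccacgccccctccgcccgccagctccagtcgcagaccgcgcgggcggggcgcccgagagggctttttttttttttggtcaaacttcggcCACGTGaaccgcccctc
The match in CSGALNACT2 begins 102 bases before the start. In CHSY1 the 2 matches overlap in 1 palindromic run of letters that reads alike on both strands. A match is a description of the letters and not a binding site, and these libraries hold no binding data.

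Counts assigned to genes ranged from 13434130 to 19553914 in the vitamin C libraries and from 17664345 to 22373591 in the control libraries. Unmapped read pairs made up 24.7% to 49.5% in the vitamin C libraries and 24.2% to 34.4% in the control libraries. Levels are normalized CPM, which are counts divided by an adjusted library size and put on a common scale, and each mean has the SD over wells. A difference is the log2 of vitamin C divided by control, from the edgeR fit, with its standard error (SE). A gene was called when its Benjamini-Hochberg adjusted p from edgeR's quasi-likelihood test, taken over all 15261 genes tested, was under 0.05. By that rule 3.60% of the genes tested were higher and 3.48% were lower after vitamin C. All 6 basal and mesenchymal markers of the line were present, with VIM at 1186 to 1311 CPM in the vitamin C libraries and 1227 to 1316 CPM in the control libraries. Their summed level was 3584 to 3954 CPM with vitamin C and 3346 to 3461 CPM in control, without overlap, and 1 of the 6, FN1, was called higher by edgeR and 2, FN1 and SNAI2, by DESeq2. The 6 did not move together. Every vitamin C library was above every control library for 2, FN1 and SNAI2, and below for 2, ZEB1 and MSN. Of all genes tested, 15.7% were separate in the higher direction and 16.6% in the lower. Of the 8 luminal markers, ESR1, PGR and FOXA1 stayed under 1 CPM in every library, and the other 5, among them KRT19 at 140.4 to 168 CPM with vitamin C and 91.3 to 140.1 CPM in control, were expressed. All 5 had a higher mean with vitamin C at an unadjusted edgeR p under 0.05. The share of all genes under that unadjusted threshold was not computed. Counts at an unadjusted p, here and below, therefore have no background and are not read as a shift of a list.

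CSGALNACT1, which adds the first N-acetylgalactosamine, is the enzyme whose rise chose the set. It had 22.1, 20.4 and 23.5 CPM in the vitamin C libraries, against 7.52, 10.3 and 11.2 CPM in the control libraries. The groups did not overlap, and the lowest vitamin C library stood well above the highest control library. The means were 22.0 ± 1.53 CPM with vitamin C and 9.65 ± 1.91 CPM in control (SD, n = 3 each), for a difference of 1.18 on the log2 scale (SE 0.14), or 2.27-fold. The SE does not allow for the choice of the gene by this rise. These values rest on 298, 282 and 468 counts in the vitamin C libraries and 132, 231 and 225 counts in the control libraries. It was number 4 by fold among 353 rises, counting genes with a symbol, separate groups, a call from both edgeR and DESeq2 and 100 or more counts on average. That rank describes the rise that chose the set and is no test of it. Calls from both tools covered 2.98% of the genes tested in the higher direction and 3.36% in the lower. The gene lies on chromosome 8 from 19404161 to 19758029 on the minus strand (GRCh38, GENCODE 44).

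Control library 1 had the lowest CSGALNACT1 level of all 6 libraries, and without it the log2 fold change was 1.04. Leaving out each other library in turn gave 1.13 to 1.30. Vitamin C library 3, with 24.7% of its read pairs unmapped, had the highest level, and control library 1, with 24.2% unmapped, had the lowest. Summed levels of markers listed for other cell types also differed between the groups. That of 6 stromal and blood cell markers was 15.0 to 17.1 CPM with vitamin C and 7.46 to 11.7 CPM in control, with PTPRC, CD3E and CD68 under 1 CPM in every library. Most of this sum was PDGFRB, at 11.5 to 13.2 CPM with vitamin C and 5.86 to 9.54 CPM in control. PDGFRB was called higher by DESeq2 (adjusted p = 0.0244) and not by edgeR. Of 3 tested, edgeR called 1 higher, PECAM1, at 1.88 to 2.16 CPM with vitamin C and 0.569 to 1.19 CPM in control. DESeq2 did not call PECAM1 (adjusted p = 0.0675). The summed level of 8 luminal markers was 235 to 261 CPM with vitamin C and 157 to 212 CPM in control, with 1 of 5 tested, EPCAM, called higher. Beside both lists, edgeR called 3.60% of all genes tested higher. The part of these markers in the result was not tested, and in bulk RNA more cells of a type and more RNA per cell cannot be told apart.

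CSGALNACT2 catalyses the same step as CSGALNACT1 and did not pass the test. It had 66.0, 62.4 and 57.8 CPM with vitamin C, against 74.6, 66.4 and 64.8 CPM in control. The groups overlapped, since the highest vitamin C library stood above the lowest control library. The log2 fold change was -0.14 (SE 0.08, 95% confidence interval -0.33 to 0.04, adjusted p = 0.293).

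Per kilobase of exon, the scale on which genes can be compared with each other, CSGALNACT2 was the more abundant of the pair in all 6 libraries. CSGALNACT1 made up 14.2%, 13.9% and 16.7% of the summed level of the pair in the vitamin C libraries, against 4.74%, 7.08% and 7.85% in the control libraries. The summed level itself was 19.4 ± 1.01 CPM per kilobase with vitamin C and 19.5 ± 1.15 CPM per kilobase in control (SD, n = 3 each), a difference smaller than the spread between wells. The share of CSGALNACT1 was higher in each vitamin C library than in any control library, and because it contains the gene that chose the set it carries no test.

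**Figure D1:**
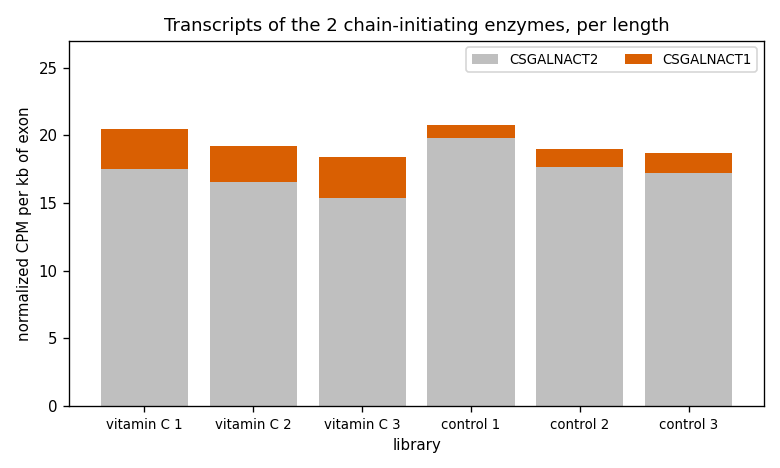
Stacked levels of the enzymes that start the chain, in CPM per kilobase of exon on the vertical axis, for each library on the horizontal axis, with the 3 vitamin C libraries left of the 3 control libraries. Grey bars are CSGALNACT2 and orange bars on top are CSGALNACT1, whose part is 13.9% to 16.7% in the vitamin C libraries and 4.74% to 7.85% in the control libraries, while the total stays between 18.4 and 20.8.

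The linkage is started by XYLT1 or XYLT2, and only the transcript of XYLT2 was counted in these cells. XYLT1 had 0 counts in all 6 libraries, and a count of 0 allows up to 3 counts, or 0.153 to 0.223 CPM in the vitamin C libraries and 0.134 to 0.170 CPM in the control libraries, for counting error only. XYLT2 had 20.5, 20.1 and 25.3 CPM with vitamin C, against 20.2, 23.4 and 24.1 CPM in control. The groups overlapped almost completely, and the log2 fold change was -0.03 (SE 0.12, 95% confidence interval -0.29 to 0.22, adjusted p = 0.874). An unnamed transcript on the other strand shares 160 bases of exon with XYLT2 and held 125 counts over all libraries beside 2425 for XYLT2.

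Of the 4 genes for lengthening the chain, none passed the test. CHSY1, a chondroitin synthase, had 85.6, 82.7 and 83.4 CPM with vitamin C, against 98.2, 88.9 and 83.0 CPM in control. Its groups overlapped through control library 3, and its log2 fold change was -0.10 (SE 0.08, 95% confidence interval -0.27 to 0.07, adjusted p = 0.433). CHSY3, a related synthase, was close to the limit of detection, with 12, 16 and 18 counts in the vitamin C libraries and 19, 14 and 17 counts in the control libraries. Its log2 fold change was 0.22 (SE 0.31, adjusted p = 0.677), and the interval of -0.46 to 0.91 leaves a change of either sign within reach at this depth. Nearly all synthase transcript was therefore CHSY1, since CHSY3 made up 1.66% ± 0.27 of the summed level per kilobase of the synthase pair with vitamin C and 1.33% ± 0.30 in control (SD, n = 3 each).

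The polymerizing factors, which work with the synthases, were not called either. CHPF had 16.7, 20.2 and 17.9 CPM with vitamin C, against 17.3, 18.5 and 18.8 CPM in control. Its interval of the log2 fold change was -0.22 to 0.23 (adjusted p = 0.981). CHPF2, its relative, had 54.9, 52.7 and 53.8 CPM with vitamin C, against 65.4, 59.6 and 55.0 CPM in control. All 3 vitamin C libraries lay below all 3 control libraries, though the nearest pair almost touched. The log2 fold change was -0.16 (SE 0.08, 95% confidence interval -0.34 to 0.03, adjusted p = 0.248). Of all genes tested, 16.6% had every vitamin C library below every control library. CHPF2 shares 1321 bases of exon with SMARCD3 on the other strand, which held 782 counts beside 6137 for CHPF2, and CHPF shares 147 bases with TMEM198, which held 50 beside 1957. An unnamed transcript on the same strand as CHPF2 shares 574 bases of exon with it and held 117 counts. The sources used here leave the strand setting unstated, so reads in these overlaps could belong to either gene.

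Sulfation at the 6 position is carried out by CHST3 and at the 4 position by CHST11, and they were among the most abundant of the 10 transcripts. CHST3 had 98.2, 101 and 103 CPM with vitamin C, against 88.1, 89.9 and 89.0 CPM in control. Every vitamin C library was above every control library, as in 15.7% of all genes tested. The means were 100.8 ± 2.30 CPM with vitamin C and 89.0 ± 0.902 CPM in control (SD, n = 3 each). The log2 fold change was 0.18 (SE 0.07, 95% confidence interval 0.03 to 0.33), and it did not pass the adjustment over all genes (adjusted p = 0.114). CHST11 had 157, 160 and 145 CPM with vitamin C, against 157, 153 and 154 CPM in control, for a log2 difference of -0.01 (SE 0.07, 95% confidence interval -0.16 to 0.15, adjusted p = 0.963). CHST3 made up 36.9%, 37.3% and 39.9% of the summed level per kilobase of this pair with vitamin C, against 34.5%, 35.4% and 35.2% in control.

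**Figure D2:**
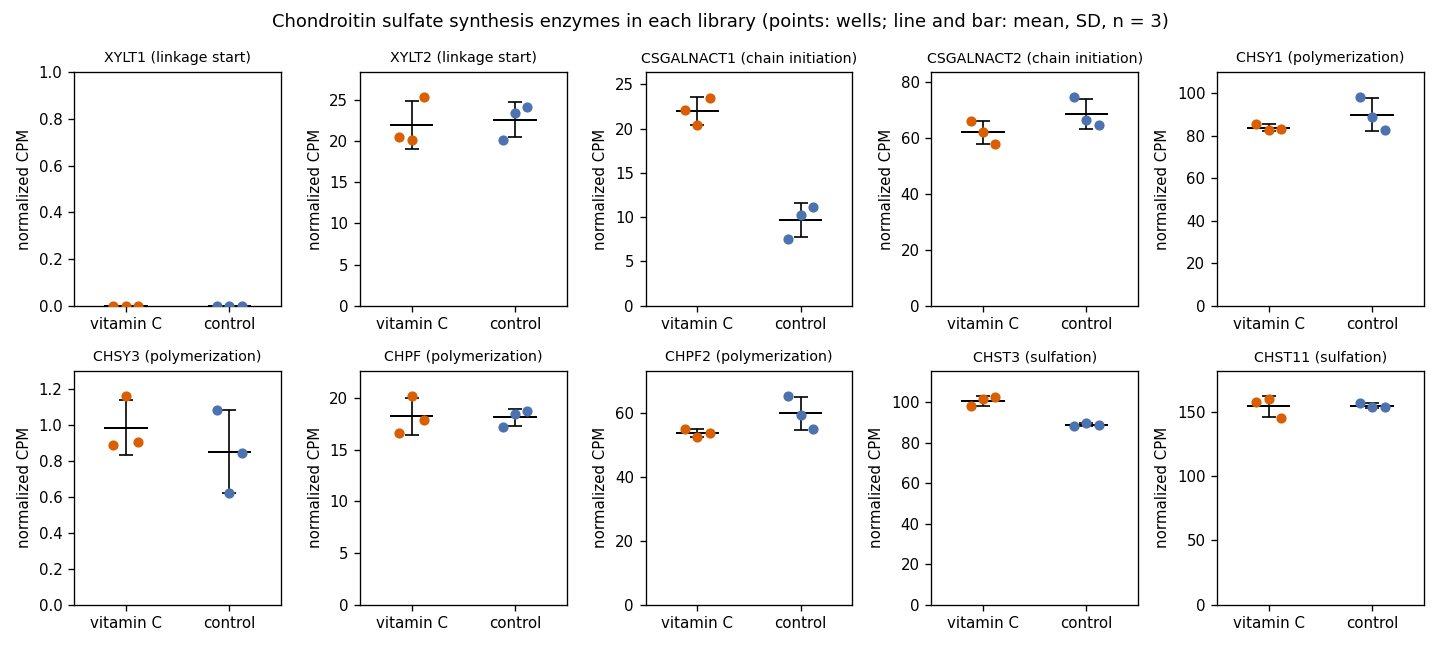
Normalized CPM (vertical axes, each from 0) of the 10 enzymes in the vitamin C wells, left, and the control wells, right, in order of the synthesis steps. Points are wells, lines and bars the mean and SD of 3. CSGALNACT1 is the panel in which the groups stand far apart, at 20.4 to 23.5 against 7.52 to 11.2 CPM, CHST3 and CHPF2 show narrow gaps, and XYLT1 is at 0 in every well.

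By count, 9 of the 10 genes passed the filter on low counts, and of the 8 besides CSGALNACT1 none was called higher or lower. Among those 8, edgeR gave an unadjusted p under 0.05 to 1 higher gene, CHST3, and to 0 lower genes, and DESeq2 called 0 of them and gave no adjusted p for CHSY3. DESeq2 called 4.35% of its genes higher and 6.36% lower. The background was 7.08% of genes called in either direction by edgeR, so no call among 8 genes stands apart from it. Their median log2 fold change was -0.02, against 0.02 over all genes tested.

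The order of the transcripts by level per kilobase spanned a wide range. CHST11 was highest, with 23.7 ± 1.22 CPM per kilobase with vitamin C and 23.8 ± 0.301 in control (SD, n = 3 each, here and in the rest of the order), at the 87.0th percentile of genes tested. CSGALNACT2 followed with 16.5 ± 1.10 with vitamin C and 18.2 ± 1.396 in control. CHSY1 had 14.8 ± 0.274 with vitamin C and 15.9 ± 1.35 in control. CHST3 had 14.5 ± 0.332 with vitamin C and 12.8 ± 0.130 in control, and CHPF2 had 8.28 ± 0.175 with vitamin C and 9.23 ± 0.802 in control. The ranges of the neighbours CSGALNACT2 and CHSY1 overlapped, although CSGALNACT2 was higher in 6 of 6 libraries, and the ranges of CHSY1 and CHST3 overlapped as well, with CHSY1 higher in 4 of 6.

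The lower end of the order held the xylosyltransferase and the enzyme that rose. CHPF had 4.93 ± 0.485 CPM per kilobase with vitamin C and 4.91 ± 0.22 in control, and XYLT2 had 4.01 ± 0.528 with vitamin C and 4.12 ± 0.387 in control. Their ranges overlapped, though CHPF was higher in 6 of 6 libraries. CSGALNACT1 stood below both in every library, with 2.88 ± 0.201 with vitamin C and 1.26 ± 0.250 in control, at the 36.4th percentile of genes tested by its mean over all libraries. Even after its rise it was the least abundant of the 10 per kilobase of merged exon, apart from CHSY3, at 0.249 ± 0.0385 with vitamin C and 0.215 ± 0.0583 in control, and XYLT1 at 0. This place depends on the merged exon length, since the length of the transcripts present was not measured. Undivided by length, the vitamin C means were 22.0 CPM for CSGALNACT1, 22.0 CPM for XYLT2 and 18.3 CPM for CHPF.

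Around these enzymes, 97 other genes of the pathway were placed in 6 lists by function, and 67 of them were tested. There were 3 called higher (GFPT2, COL12A1 and COL9A2) and 2 called lower (UAP1 and HS2ST1), with a median log2 fold change of -0.03 over the 67, against 0.02 over all genes. With the background of 3.60% higher and 3.48% lower, neither count stands apart from that of all genes.

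**Figure D3:**
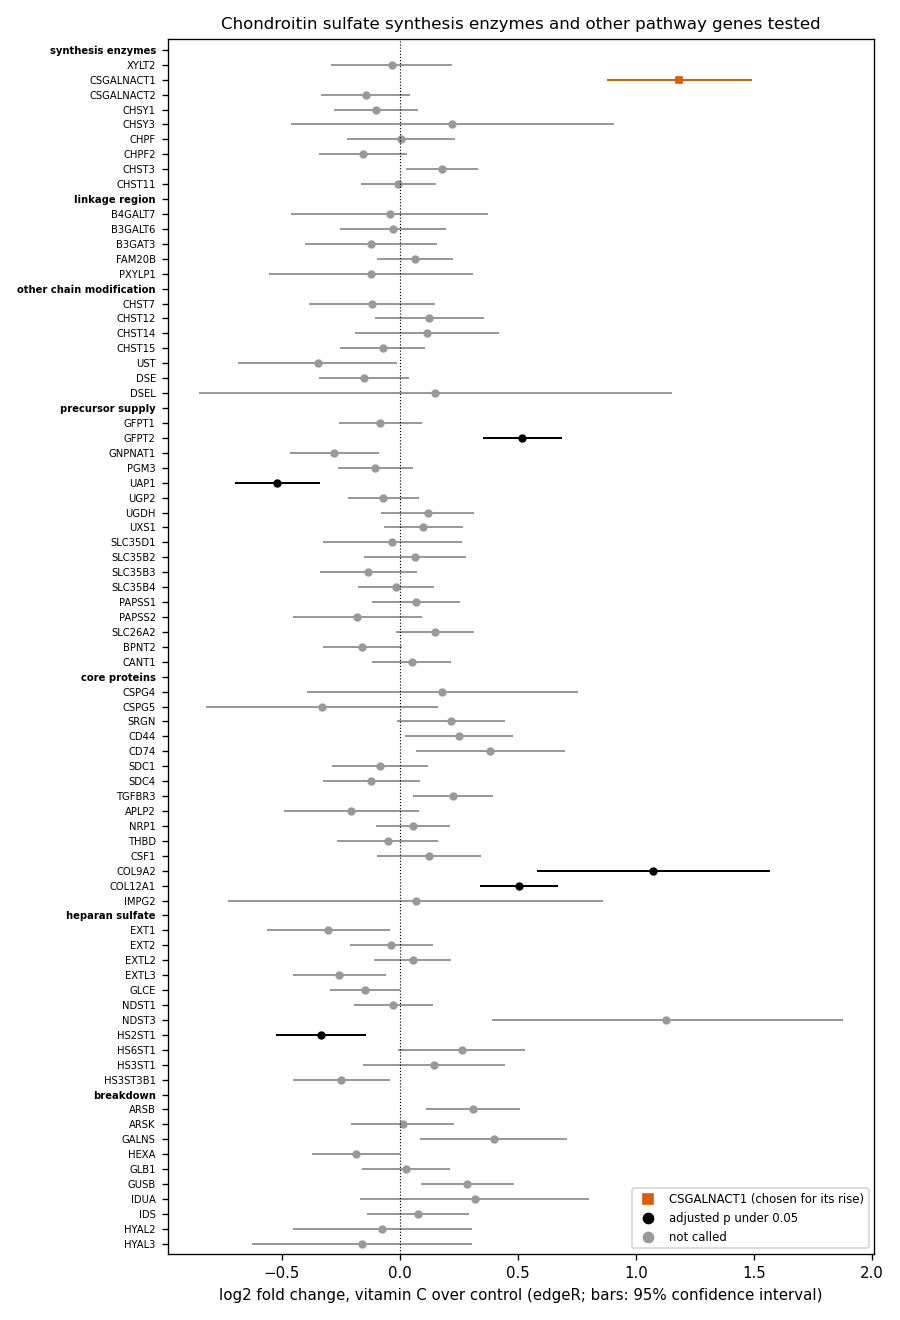
The log2 ratio of vitamin C to control (horizontal axis) with its 95% confidence interval from edgeR for the tested synthesis enzymes at the top and tested genes of the 6 other pathway lists below (vertical axis). CSGALNACT1, the orange square, is at 1.18, and its interval does not allow for its choice by this rise. The genes with an adjusted p under 0.05, in black, are GFPT2, UAP1, COL9A2, COL12A1 and HS2ST1, and those in grey were not called.

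The list for the supply of precursors held both a rise and a fall within 1 short route, the one that makes the UDP-N-acetylgalactosamine used by CSGALNACT1 and the synthases. Of its 18 genes, all tested, 1 was higher and 1 lower, against 3.60% and 3.48% of all genes tested. GFPT2, an isoform of the rate-limiting first enzyme of the hexosamine pathway, had 165, 155 and 142 CPM with vitamin C, against 108, 107 and 107 CPM in control. It rose by 0.52 on the log2 scale (SE 0.08, edgeR adjusted p = 0.0067), and the groups were far apart. UAP1, which makes the UDP-sugar at the end of the hexosamine pathway and was the most abundant gene of the list per kilobase, had 130.0, 140.0 and 132 CPM with vitamin C, against 211, 182 and 183 CPM in control. It fell by 0.52 on the log2 scale (SE 0.08, edgeR adjusted p = 0.00909), so GFPT2 and UAP1 moved in opposite directions.

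Further genes of that route, chosen after their values were seen, did not pass the test in edgeR. GFPT1, the other isoform of the first enzyme, had 260.3, 272 and 272 CPM with vitamin C, against 307, 285 and 259.9 CPM in control (log2 fold change -0.08, adjusted p = 0.526). GNPNAT1, the acetyltransferase, averaged 88.0 ± 6.78 CPM with vitamin C and 106.8 ± 8.30 CPM in control (SD, n = 3 each), without overlap, with a log2 fold change of -0.28. Its adjusted p was 0.0657 in edgeR and 0.034 in DESeq2. PGM3, the mutase, had a log2 fold change of -0.10 (adjusted p = 0.368). GFPT2 made up 51.8% ± 2.43 of the summed level per kilobase of the GFPT pair with vitamin C and 41.6% ± 1.89 in control. Unlike the summed level of the CSGALNACT pair, that of the GFPT pair was higher with vitamin C in every library, at 62.9 ± 1.86 CPM per kilobase with vitamin C and 54.8 ± 2.79 in control (SD, n = 3 each). The share and the sum both contain GFPT2, already called higher, so they carry no test of their own.

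**Figure D4:**
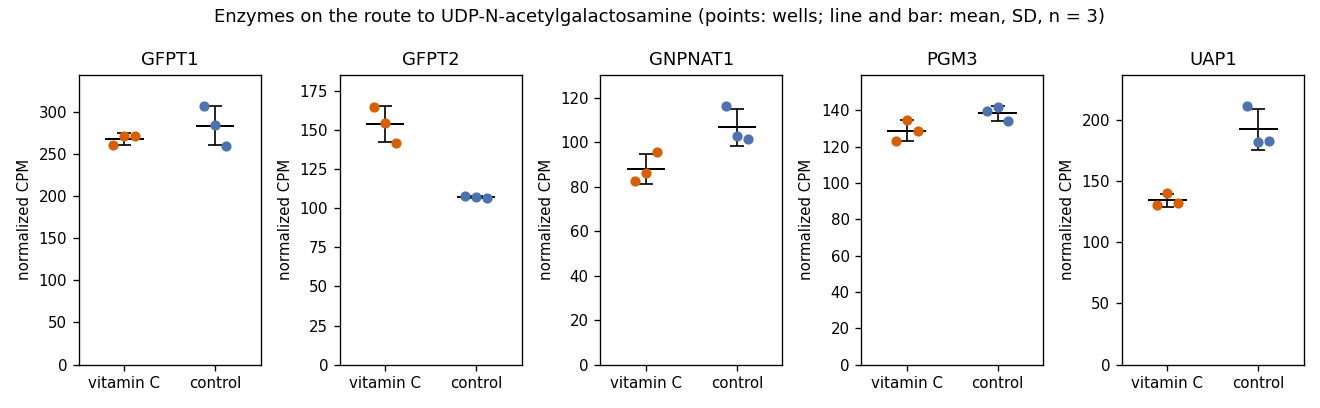
Normalized CPM (vertical axes, each from 0) of 5 enzymes on the route to UDP-N-acetylgalactosamine, in pathway order, in the vitamin C wells, left, and the control wells, right. Points are wells, lines and bars the mean and SD of 3. GFPT2 is higher in every vitamin C well (142 to 165 against 107 to 108 CPM), UAP1 is lower in every one (130.0 to 140.0 against 182 to 211 CPM), and GFPT1 and PGM3 overlap between groups.

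Among 29 core proteins that can carry chondroitin sulfate, 15 were tested, 2 were higher and 0 lower. Of all genes tested, 3.60% were called higher and 3.48% lower, and counts in a list this short are not read as a shift of the list. At an unadjusted p under 0.05, for which no background was computed, there were 5 higher and 0 lower. COL12A1, a fibril-associated collagen, averaged 372.0 ± 9.60 CPM with vitamin C and 262.1 ± 15.2 CPM in control (SD, n = 3 each), a rise of 0.51 on the log2 scale (SE 0.07, edgeR adjusted p = 0.0067). COL9A2, a chain of the cartilage collagen IX, had 8.52, 8.62 and 12.3 CPM with vitamin C, against 3.02, 5.50 and 5.47 CPM in control. It rose by 1.07 on the log2 scale (SE 0.22, edgeR adjusted p = 0.0228), and the call was lost without control library 1 (adjusted p = 0.0725) or control library 2 (0.0572). Both genes encode collagens. APLP2, an amyloid precursor relative and the most abundant of the list per kilobase, averaged 1342 ± 278 CPM with vitamin C and 1547 ± 141 CPM in control (SD, n = 3 each; adjusted p = 0.325). Of the matrix proteoglycans on the list, ACAN, DCN and BGN had 0 counts and VCAN had 24 over all libraries. Other carriers on the list were well expressed, among them SRGN with 6385 counts, SDC4 with 37217 and CD44 with 110441. These 7 genes were named after their values were seen.

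In the 4 remaining lists 1 gene was called. Heparan sulfate synthesis, which competes for the same linkage, had 11 of 23 genes tested, 0 higher and 1 lower, against 3.60% and 3.48% of all genes tested. At an unadjusted p under 0.05, for which no background was computed, there were 1 higher and 5 lower. Every vitamin C library was below every control library for 5 of the 11, against 16.6% of all genes tested. The reverse held for 1, NDST3, against 15.7% of all genes tested. NDST3, named after its values were seen, had 28 to 38 counts with vitamin C and 7 to 31 in control. Its log2 fold change was 1.13 (SE 0.34, edgeR adjusted p = 0.0619). Over the 67 tested genes of the pathway lists together, 9 were separate in the higher direction and 13 in the lower. HS2ST1, a sulfotransferase of heparan sulfate, had 127, 117 and 125 CPM with vitamin C, against 168, 159 and 138 CPM in control, and the log2 difference was -0.34 (SE 0.08, edgeR adjusted p = 0.0403). Its call was lost without vitamin C library 1 (adjusted p = 0.0891) or 2 (0.0883) and without control library 1 (0.143) or 2 (0.131). EXT1, a polymerase of heparan sulfate and the most abundant of that list per kilobase, had 247, 188 and 278 CPM with vitamin C, against 296, 299 and 285 CPM in control (log2 fold change -0.30, adjusted p = 0.122).

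Linkage enzymes, with 5 of 5 tested, and other chain modifiers, with 7 of 8 tested, had 0 genes called by edgeR and 0 by DESeq2, and at an unadjusted edgeR p under 0.05 there were 0 linkage enzymes and 1 modifier, the sulfotransferase UST, which was lower. FAM20B, the xylose kinase of the linkage, averaged 196.1 ± 6.25 CPM with vitamin C and 187.4 ± 8.98 CPM in control (adjusted p = 0.586), and CHST15, which adds a further sulfate, averaged 122.1 ± 10.5 CPM with vitamin C and 128.4 ± 4.53 CPM in control (SD, n = 3 each; adjusted p = 0.595). The list for breakdown of the chain in lysosomes had 0 of 11 tested genes called by edgeR, 3 higher (ARSB, GALNS and GUSB) and 2 lower at an unadjusted p under 0.05, while DESeq2 called 1 higher, ARSB (adjusted p = 0.0497), and 1 lower. Of all its genes, DESeq2 called 4.35% higher and 6.36% lower. The sulfatases ARSB and GALNS, GUSB and UST were named after their values were seen.

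Across the 6 libraries, the genes whose log2 CPM followed CSGALNACT1 most closely among 10140 named genes averaging 100 counts or more were ARHGEF5 (Pearson r = 0.998), ADAM28 (0.997), LITAF (0.997), NLRC5 (0.996) and COL12A1 (0.996). The points share the group difference and the low level of control library 1, so these coefficients are a description over 6 libraries. ADAM28 had 52.0, 48.5 and 54.0 CPM with vitamin C, against 22.1, 30.4 and 31.5 CPM in control, the same order of libraries within each group as CSGALNACT1. Among the other synthesis enzymes the coefficient was highest for CHST3 at 0.953 and lowest for CHPF2 at -0.86, with CSGALNACT2 at -0.80.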

How the data were processed

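RNA-seq libraries of 3 vitamin C and 3 control wells of MDA-MB-231 cells were grouped and numbered by their labels. The submitters' processing notes name CASAVA 1.4, Trim Galore, STAR and hg38. The authors deposited raw counts per Ensembl gene, without normalization, and the sources used here state neither the STAR version nor the annotation release or strand setting. The 4 summary lines of each file (50.6% to 69.7% of read pairs) entered neither library sizes nor tests. A deposited table of all libraries was read only to compare it with the single files, and every count was equal. Identifiers were matched to GENCODE 44 (56558 of 60675).

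CPM were computed here with TMM factors (0.972 to 1.02), and CPM per kilobase with the merged exon length. Tests were run in R 4.3.3 with edgeR 4.0.16 (filterByExpr with a minimum count of 10, quasi-likelihood F test, no covariate), with Benjamini-Hochberg adjustment over 15261 genes and a threshold of 0.05. DESeq2 1.42.0 was run on 33769 genes with at least 1 count, of which 13472 had an adjusted p. The biological coefficient of variation was 9.40%. Likeness was Pearson r of log2 CPM with a prior count of 2. The code was tested on simulated counts. No replicate pair looked like a repeated deposit: counts differed beyond sampling noise, with a chi-square of 4.99 to 24.3 per degree of freedom.

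The genes and lists were chosen with earlier results of these data known. The named genes are the 10 enzymes, up to 4 called genes with the smallest p and the most abundant gene per kilobase of each other list, the 5 genes most like CSGALNACT1, and genes with counts that overlap an enzyme on the other strand; exceptions are marked, and the values of some pathway genes are not reported here. Alternatives were RLE and upper-quartile factors, no filter, DESeq2, calls by both tools, a replicate block, and each library left out in turn.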

Additional observations from a re-analysis of the deposited data

How the results depend on the processing

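Of the synthesis enzymes besides CSGALNACT1, 0 were called higher and 0 lower under each alternative. The CSGALNACT1 log2 fold change, a description, was 1.16 to 1.22 under other settings and 1.04 to 1.30 with a library left out. The enzymes with changes near 0 turned sign. XYLT2 was at 0.0012 with upper-quartile factors and -0.157 to 0.0235 with a library left out, CHPF at -0.00022 with RLE factors, -0.0187 without the filter, -0.0115 in DESeq2 and -0.0731 to 0.0606 with a library left out, and CHST11 at 0.0313 with upper-quartile factors and -0.0346 to 0.0346 with a library left out, none past the threshold. The adjusted p of CHST3 was 0.0702 to 0.411 over all alternatives.

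All genes called numbered 1080 (549 higher, 531 lower), against 2245 without the filter, 687 higher and 377 lower with upper-quartile factors, 586 higher and 857 lower in DESeq2, and 128 to 1900 with a library left out (without controls 1, 2 and 3 the counts were 128, 142 and 693, and without vitamin C libraries 1, 2 and 3 they were 388, 503 and 1900). Without the filter, genes called lower numbered 2 for precursors, 2 for heparan sulfate and 1 for breakdown, and genes called higher 1 for heparan sulfate and 1 for breakdown. DESeq2 gave 2 lower for precursors and 1 higher and 1 lower for breakdown, and upper-quartile factors gave 0 lower for heparan sulfate and 1 higher for breakdown. With a library left out the ranges were 1 to 3 lower for precursors, 1 to 3 higher and 0 to 1 lower for core proteins, 0 to 3 lower for heparan sulfate, and 0 to 3 higher and 0 to 1 lower for breakdown. The cause was not tested.

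Libraries of the 2 groups share only replicate numbers: deviations from the group means correlated at -0.016, -0.0556 and -0.0452 for the same number. With the number as a block, 731 genes were called (393 higher, 338 lower), 0 heparan sulfate genes were lower (HS2ST1 adjusted p = 0.063), and CSGALNACT1 was at 1.19. Depth limits CHSY3, with 12 to 19 counts a library, and XYLT1, with 0.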
